A study of Mus musculus with 2 samples.

Results

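Matrix metalloproteinases (MMPs) and the tissue inhibitors of metalloproteinases (TIMPs) are described here in the stroma of the mouse mammary gland at puberty and in the adult. The members were chosen by gene symbol and are 10 of the 33696 genes counted. These are the 7 metalloproteinase genes *Mmp2*, *Mmp3*, *Mmp11*, *Mmp14*, *Mmp19*, *Mmp23* and *Mmp27* and the 3 inhibitor genes *Timp1*, *Timp2* and *Timp3*. The study mapped mammary fibroblasts over postnatal development, and the libraries used here hold stromal cells sorted as lineage-negative and CD24-. Per the study's methods, the lineage markers were CD31, CD45 and TER-119, which remove endothelial, immune and red blood cells, and CD24 removes epithelium. One library came from pubertal mice (4 weeks) and 1 from virgin adults (9 weeks), each with cells of 2 females. All mice were wildtype females of the C57BL/6 strain, with no transgene and no treatment given in the labels. Each stage had 1 library, both numbered replicate 2, so no difference could be set against the spread between mice and no test was made.

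Metalloproteinases are zinc-dependent proteases that cut collagens, basement membrane proteins and growth factor binding proteins outside the cell. Most are made as inactive proenzymes, and TIMPs block the active site of the mature enzyme. In the mammary gland much of this system is made by stromal fibroblasts, and it is known for its part in ductal growth and branching during puberty and in the remodelling after weaning. The membrane-anchored MMP14, together with TIMP2, also activates pro-MMP2, so an inhibitor can take part in activation.

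The pubertal matrix held 255274670 unique molecular identifiers (UMIs) over 21688 barcodes. In the adult matrix 259549498 UMIs were spread over 23183 barcodes. With at least 500 genes and at most 10% mitochondrial UMIs, 21534 pubertal and 22972 adult cells were kept. Cells with a *Pdgfra* UMI, here the fibroblasts, numbered 18878 (87.7%) and 20999 (91.4%), with medians of 12187 and 11265 UMIs. Fibroblast markers summed to 22324 and 22343 UMIs per 1000000 UMIs (CPM) in them, against 69.6 and 43.4 CPM for markers of mural cells, which wrap vessels. The 145 barcodes found in both libraries moved no count of members given below when left out.

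Within the *Pdgfra*+ cells, 5 marker subsets were drawn from single UMIs, with at least 2 for *Fabp4*. The study places *Pi16* and *Dpp4* with its mesenchymal progenitors. Pi16+Dpp4+ cells made up 74.1% of pubertal and 42.2% of adult *Pdgfra*+ cells. Cells with *Gdf10* or *Fmo2* made up 39.5% and 47.9%, cells with *Thbs4* or *Bmp5* 4.91% and 14.8%, *Fabp4* cells 9.42% and 12.2%, and *Crabp1* cells 1.53% and 12.7%. The subsets overlap, and 55.9% of pubertal and 30.4% of adult *Gdf10* or *Fmo2* cells were also Pi16+Dpp4+. Cells with none of these markers made up 3.74% and 11.9%. Beside them stood 783 pubertal and 457 adult *Pdgfra*-negative cells with *Myh11* or *Rgs5*, which mark smooth muscle cells and pericytes.

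Levels are CPM of UMIs summed over a group. The kit tags a transcript near its 3′ end, so values were not divided by length. The 95% intervals cover counting error only, and a member was called higher or lower when its adult CPM was at least 1.5-fold above or below its pubertal CPM with at least 10 CPM in 1 library.

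*Mmp3*, which encodes stromelysin-1, and *Mmp27* lie on chromosome 9 in a row of 10 metalloproteinase genes, and only these 2 of the 10 reached 5 CPM in *Pdgfra*+ cells. In GENCODE M21 on GRCm38, the mm10 build named in the labels, *Mmp3* spans chr9:7445822-7455975 and *Mmp27* chr9:7571396-7581885, both on the plus strand and 125574 bases apart between their starts. The 250 bases before each RefSeq start (GRCm38.p6, plus strand) are shown because these neighbours differed between the stages in opposite directions. Capitals mark the letters TGAGTCA, the consensus bound by AP-1, the Fos and Jun factors. They were searched on both strands, where the other strand reads TGACTCA, and stood in 4.46% of 32851 promoters of this length.
*Mmp3*, chr9:7445572-7445821: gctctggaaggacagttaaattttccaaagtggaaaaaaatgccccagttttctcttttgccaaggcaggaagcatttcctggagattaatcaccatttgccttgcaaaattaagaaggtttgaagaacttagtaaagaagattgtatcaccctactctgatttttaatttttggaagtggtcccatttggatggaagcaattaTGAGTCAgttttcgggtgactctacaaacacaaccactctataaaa
*Mmp27*, chr9:7571146-7571395: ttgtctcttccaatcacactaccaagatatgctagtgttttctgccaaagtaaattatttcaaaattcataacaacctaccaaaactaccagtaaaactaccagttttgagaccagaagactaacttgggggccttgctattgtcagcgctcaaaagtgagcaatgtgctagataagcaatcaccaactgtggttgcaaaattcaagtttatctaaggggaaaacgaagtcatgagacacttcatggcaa
The *Mmp3* window holds the letters once, and the *Mmp27* window does not hold them. Promoters were in the RefSeq table for 8 of the 10 members, and *Mmp3* was the only one of these 8 with the letters. They are not particular to *Mmp3* on chromosome 9, where 7 of 12 promoters of the metalloproteinase row hold them, while 8 of its 10 genes stayed under 5 CPM.

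The other members lie apart in the same annotation. *Mmp2* spans chr8:92827291-92853420, *Mmp14* chr14:54431612-54445364 and *Mmp23* chr4:155650655-155653384, and none of these overlaps another gene. *Mmp11* (chr10:75923222-75936496) overlaps *Chchd10* and *Mmp19* (chr10:128790910-128800824) overlaps *Tmem198b* and *Gm47093*, all on the opposite strand. *Timp2* (chr11:118301069-118355740) overlaps *Cep295nl* on its own strand. Whether reads of overlapping genes were split between them in counting was not tested.

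*Mmp3* was the member that was higher in the adult in the most cell groups. In *Pdgfra*+ cells it was at 276 CPM at puberty and 636 CPM in the adult, a ratio of 2.30 (2.28 to 2.32). Stromelysin-1 cuts many basement membrane proteins and activates other pro-MMPs. The adult value was higher in each of the 5 subsets, with ratios of 2.61 in Pi16+Dpp4+ cells, 1.78 in *Gdf10* or *Fmo2* cells, 1.99 in *Thbs4* or *Bmp5* cells, 1.72 in *Fabp4* cells and 2.66 in *Crabp1* cells. The ratio was 2.06 in *Pdgfra*+ cells with no marker. The pubertal levels ran from 155 CPM in Pi16+Dpp4+ cells to 512 CPM in *Fabp4* cells, and the adult levels from 405 to 879 CPM in the same subsets. In the adult the intervals of *Fabp4* and no-marker cells overlapped, as did those of *Thbs4* or *Bmp5* and Pi16+Dpp4+ cells, while at puberty no neighbours in the order overlapped. In these overlapping subsets the smallest ratio was in *Fabp4* cells, which also had the highest pubertal level. Of the *Fabp4* cells, 60.7% at puberty and 72.3% in the adult were also *Gdf10* or *Fmo2* cells. In *Fabp4* cells of no other subset *Mmp3* was at 438 and 938 CPM, a ratio of 2.14, so neither rank held there. Among cells of the *Gdf10* or *Fmo2* subset that were in no other subset, *Mmp3* was at 915 CPM at puberty and 1042 CPM in the adult, a ratio of 1.14 that misses the 1.5-fold rule. In *Crabp1* cells of no other subset it was at 92.3 and 459 CPM, a ratio of 4.97 over 100 pubertal and 1042 adult cells.

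Across all *Pdgfra*+ cells, 2 of the 10 members were at least 1.5-fold higher in the adult (*Mmp3* and *Mmp11*) and 2 were at least 1.5-fold lower (*Mmp23* and *Mmp27*). Over all 8645 genes with 10 CPM, 12.0% were higher and 5.09% lower by the same rule. The median log2 ratio of the members was 0.05, against 0.13 over all genes. With 10 members, each gene makes up 10% of the count, so these counts set nothing apart from the genes at large.

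**Figure D1:**
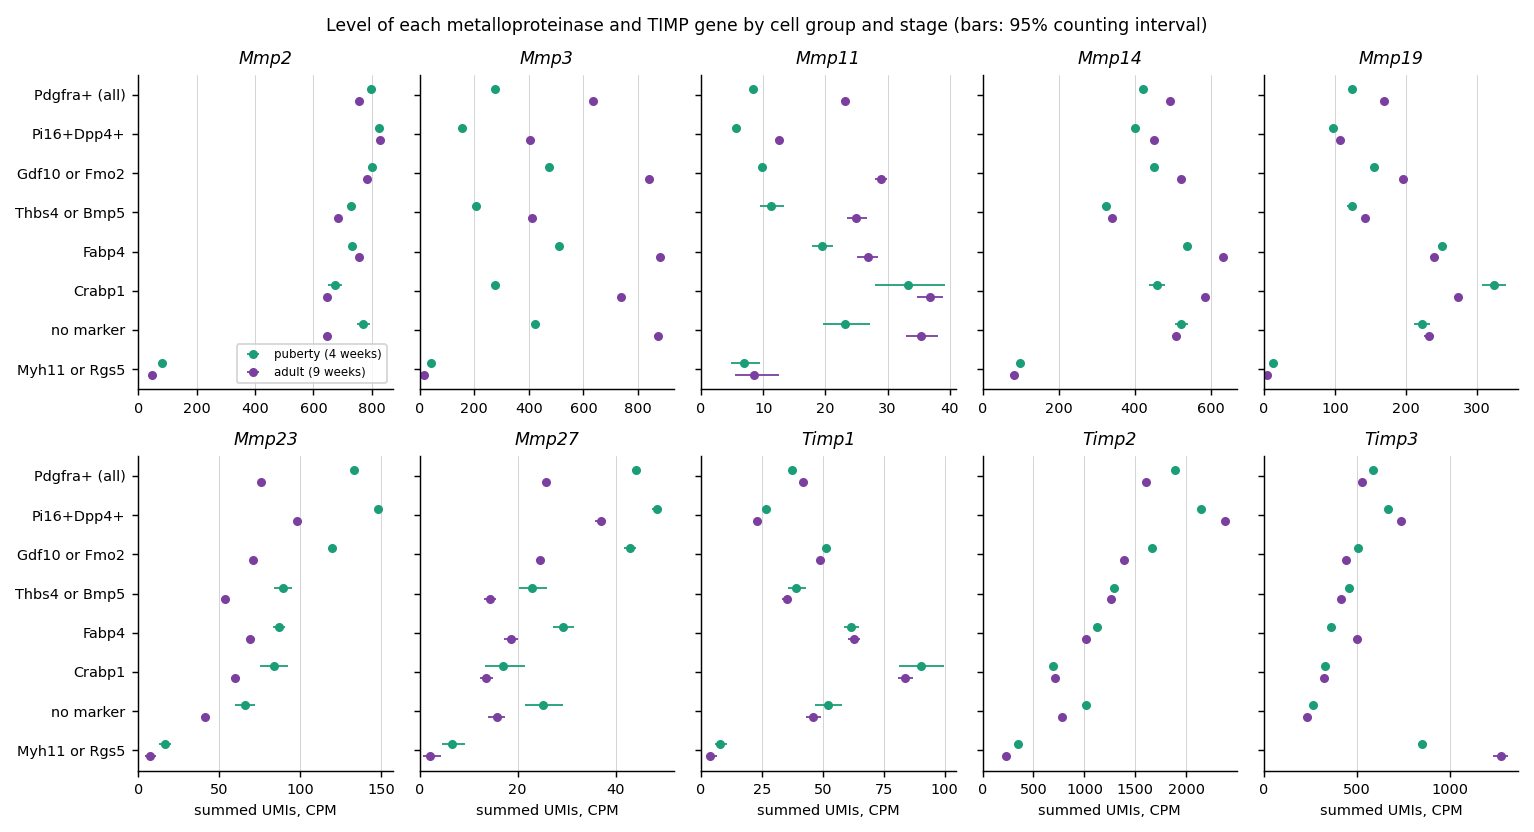
Each panel plots 1 gene as CPM of summed UMIs (x axis, starting at 0) for 8 cell groups at puberty (green, 4 weeks) and in the adult (purple, 9 weeks), with 1 library per stage and bars for the 95% counting interval. The marker subsets overlap. Among the groups as plotted, *Timp2* is highest in Pi16+Dpp4+ cells (2142 and 2379 CPM), *Mmp3* in *Fabp4* cells (512 and 879 CPM), and *Timp3* in *Myh11* or *Rgs5* cells (853 and 1274 CPM).

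The count differed between subsets. In Pi16+Dpp4+ cells 2 members were higher, again *Mmp3* and *Mmp11* (9.46% of all genes), and 1 was lower, *Mmp23* (3.86%). In *Gdf10* or *Fmo2* cells the 4 calls were those of all *Pdgfra*+ cells, where 10.7% of genes were higher and 5.72% lower. The *Thbs4* or *Bmp5* cells gave these 4 calls too, beside 6.21% and 5.43% of genes. In *Fabp4* cells *Mmp3* was called higher (8.12%) and *Mmp27* lower (5.36%). In *Crabp1* cells *Mmp3* was called higher (8.27%) and 0 members lower, where 6.45% of genes were. *Pdgfra*+ cells with no marker again gave the 4 calls, beside 12.0% of genes higher and 6.85% lower. *Mmp3* was thus the 1 member called in every subset.

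*Mmp11* encodes stromelysin-3, which is activated inside the cell by furin and is known from mammary stroma and fat. It was the least abundant member, at 8.33 CPM in the *Pdgfra*+ cells of puberty and 23.2 CPM in those of the adult, a ratio of 2.78 (2.64 to 2.93). Its ratio was 2.93 in *Gdf10* or *Fmo2* cells and 2.25 in Pi16+Dpp4+ cells. In *Crabp1* cells, where it was highest, it was at 33.3 and 36.8 CPM, with an interval of the ratio (0.930 to 1.33) that includes 1. *Pdgfra*+ cells with no marker came next at puberty, at 23.1 CPM and a ratio of 1.53, and then *Fabp4* cells, at 19.5 CPM and 1.38. In cells of 1 subset alone the ratio was 2.91 for *Gdf10* or *Fmo2* and 2.42 for *Thbs4* or *Bmp5*. For *Fabp4* (0.903) and *Crabp1* (0.768) alone it was below 1, with intervals that include 1. In Pi16+Dpp4+ cells alone *Mmp11* was at 4.61 and 7.46 CPM, under the 10 CPM minimum. With all subsets weighted equally its ratio over *Pdgfra*+ cells was 1.36.

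*Mmp19*, a protease of basement membranes, also had *Crabp1* cells at the top of its order (324 and 273 CPM) and Pi16+Dpp4+ cells at the bottom of the fibroblast subsets (97.5 and 108 CPM). In *Pdgfra*+ cells it was at 124 CPM at puberty and 169 CPM in the adult, a ratio of 1.36 (1.34 to 1.38). No subset reached that ratio. The ratios within subsets ran from 0.844 in *Crabp1* cells to 1.26 in *Gdf10* or *Fmo2* cells, so the direction was not shared. With the mix of subsets held as at puberty, the ratio over *Pdgfra*+ cells was 1.02.

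*Mmp23*, a membrane protease with an unusual cysteine-rich tail, and *Mmp27*, a little-studied relative of the stromelysins, were the members called lower in the adult. *Mmp23* was at 133 CPM at puberty and 75.5 CPM in the adult, a ratio of 0.568 (0.558 to 0.579). *Mmp27* was at 44.1 and 25.8 CPM, a ratio of 0.585 (0.567 to 0.604). Both were highest in Pi16+Dpp4+ cells, which made up less of the adult library. *Mmp23* stood there at 148 and 97.9 CPM, a ratio of 0.662 that lies close to the 1.5-fold limit, and *Mmp27* at 48.5 and 36.9 CPM. Within the subsets the ratios of *Mmp23* ran from 0.591 to 0.794 and those of *Mmp27* from 0.572 to 0.800, all below 1, although the interval for *Mmp27* in *Crabp1* cells (0.622 to 1.04) includes 1. Holding the subset mix as at puberty moved *Mmp23* to 0.709 and *Mmp27* to 0.800, so neither then met the 1.5-fold rule. With each cell thinned to 3000 UMIs, the share of *Pdgfra*+ cells with an *Mmp23* UMI was 30.7% at puberty and 18.3% in the adult, and with an *Mmp27* UMI 11.5% and 6.49%, against 3.71% and 2.41% (*Mmp23*) and 0.825% and 0.267% (*Mmp27*) of *Myh11* or *Rgs5* cells.

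**Figure D2:**
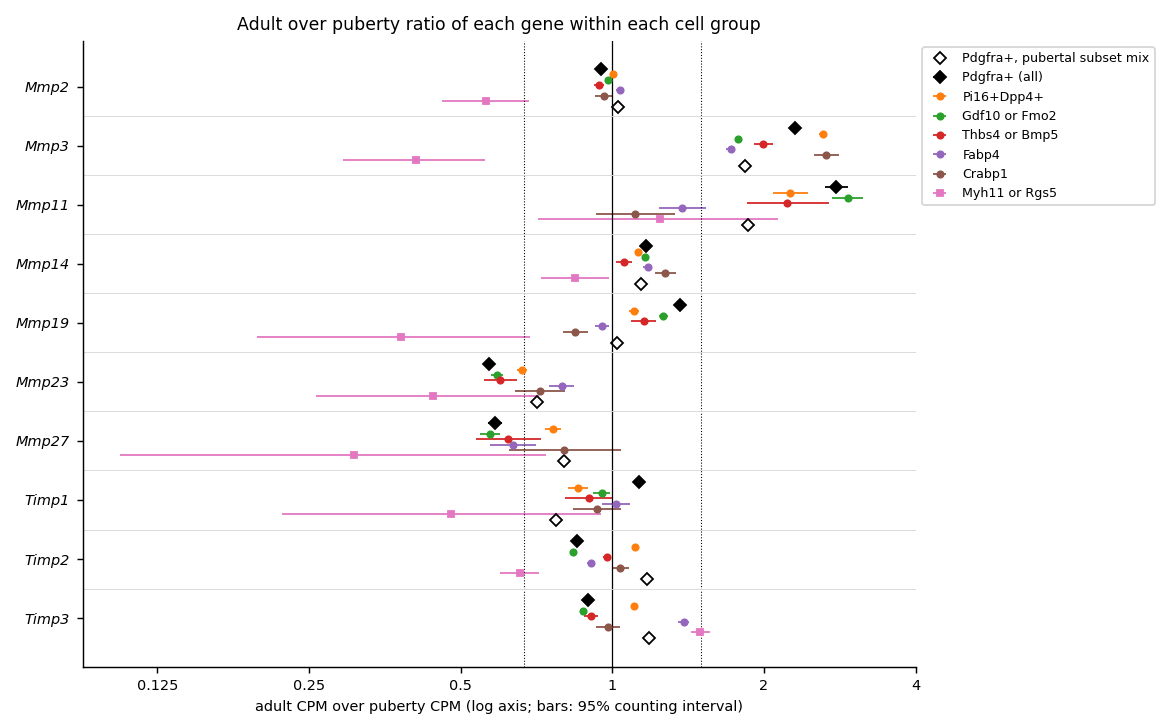
The adult over puberty ratio of CPM (log x axis) is plotted for the 10 genes (rows) in all *Pdgfra*+ cells (filled diamonds), the 5 subsets (circles) and *Myh11* or *Rgs5* cells (squares), with 95% counting intervals, and open diamonds give *Pdgfra*+ cells with the pubertal subset mix in both libraries. Dotted lines mark the 1.5-fold rule: *Mmp3* lies above it in all *Pdgfra*+ cells and in all 5 subsets, and the open diamonds of *Timp2* (1.17) and *Timp3* (1.18) lie on the other side of 1 from the filled ones (0.852 and 0.896).

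*Mmp2*, *Mmp14* and *Timp2* form the activation set in which MMP14 and TIMP2 turn pro-MMP2 into gelatinase A, a protease of denatured and basement membrane collagen. *Mmp2* was the most even member across subsets, at 798 CPM at puberty and 757 CPM in the adult, a ratio of 0.949 (0.943 to 0.955). Between the fibroblast groups, which overlap, it spanned 1.22-fold at puberty and 1.28-fold in the adult. In cells of 1 subset alone the range was wider. There *Mmp2* ran from 502 CPM (*Crabp1*) to 821 CPM (*Thbs4* or *Bmp5*) at puberty, and from 519 CPM (*Crabp1*) to 832 CPM (Pi16+Dpp4+) in the adult. *Mmp14* was at 422 and 493 CPM, a ratio of 1.17 (1.16 to 1.18), and was highest in *Fabp4* cells (539 and 633 CPM) and lowest in *Thbs4* or *Bmp5* cells (324 and 342 CPM). Neither enzyme met the 1.5-fold rule in any fibroblast subset.

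*Timp2* varied more. It was at 1888 CPM at puberty and 1608 CPM in the adult, a ratio of 0.852 (0.848 to 0.856), and ran from 2142 and 2379 CPM in Pi16+Dpp4+ cells down to 688 and 714 CPM in *Crabp1* cells. The order of the 5 subsets was the same at both stages, and no intervals of neighbours in it overlapped. In cells of 1 subset alone the order changed. There *Fabp4* cells were above *Thbs4* or *Bmp5* cells at puberty (897 and 797 CPM) and below them in the adult (851 and 954 CPM). Within Pi16+Dpp4+ cells the adult level was higher, with a ratio of 1.11 (1.10 to 1.12), and in cells of that subset alone the ratio was 1.25. In *Crabp1* cells of no other subset *Timp2* was at 286 and 477 CPM, a ratio of 1.67 that meets the 1.5-fold rule, against 1.04 in all *Crabp1* cells. With the pubertal mix of subsets in both libraries the ratio over *Pdgfra*+ cells was 1.17, the other direction from the plain sum. Of thinned *Pdgfra*+ cells, 58.0% (57.2 to 58.7) in the pubertal library and 53.7% (53.1 to 54.4) in the adult one held a UMI of all 3 genes of the set. These shares were 1.01 and 1.04 times the product of the single shares.

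*Timp1*, the inhibitor that is weakest on membrane-anchored MMPs, had 37.2 CPM at puberty and 42.0 CPM in adult *Pdgfra*+ cells, a ratio of 1.13 (1.10 to 1.16). It was highest in *Crabp1* cells, at 90.1 and 83.9 CPM, and lowest in Pi16+Dpp4+ cells, at 26.8 and 22.9 CPM. In 4 of the 5 subsets the adult value was the lower one, although the interval in *Crabp1* cells (0.836 to 1.04) includes 1, and with the pubertal mix the ratio was 0.772. Its highest and lowest subsets are the reverse of those of *Timp2*. *Timp1* lies inside *Syn1* on the opposite strand (chrX:20870166-20874735), and the strand used in counting is not given in the sources used here.

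*Timp3* encodes the inhibitor that stays bound to the matrix and also blocks ADAM17, a sheddase. It was at 588 CPM at puberty and 527 CPM in the adult in *Pdgfra*+ cells, a ratio of 0.896 (0.889 to 0.903). The ratio was 1.39 (1.35 to 1.42) in *Fabp4* cells, where the level was 360 CPM at puberty and 499 CPM in the adult, and 0.873 in *Gdf10* or *Fmo2* cells. In *Fabp4* cells of no other subset *Timp3* was at 303 and 496 CPM, a ratio of 1.64 that meets the 1.5-fold rule. Mural cells are rich in *Timp3*, and mural markers summed to 515 and 202 CPM in *Fabp4* cells. Their part in the *Timp3* ratio of *Fabp4* cells was not tested. Pi16+Dpp4+ cells held the most of the fibroblast subsets, at 668 and 736 CPM. The level of *Timp3* thus differed little in sum, while its spread over cells differed.

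To compare the spread, each cell with at least 3000 UMIs was thinned to 3000, which left out 336 pubertal and 426 adult *Pdgfra*+ cells. The share of *Pdgfra*+ cells with a *Timp3* UMI was 71.3% (70.6 to 72.0) in the pubertal library and 51.7% (51.0 to 52.4) in the adult one, and it was 89.7% and 66.8% without thinning. The variance of *Timp3* UMIs per cell was 1.87 times the mean at puberty and 3.83 times in the adult. *Timp2* widened too, from 2.08 to 3.67 times its mean. Adult cells were more often without *Timp3* and more often rich in it. At least 10 of 3000 UMIs were *Timp3* in 69 pubertal cells (0.372%, 0.290 to 0.471) and in 302 adult cells (1.47%, 1.31 to 1.64). In Pi16+Dpp4+ cells the share with a UMI was 80.7% and 75.2%, a smaller difference than over all *Pdgfra*+ cells.

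These cells were chosen by their *Timp3*, so its level in them is no result. Other genes were ranked and counted only if they passed a minimum CPM in the rich cells, and genes lower there were not counted. The rich cells also differed in number, 69 at puberty and 302 in the adult. *Syn3* is a synapsin gene whose span (chr10:86055125-86498896, minus strand) contains *Timp3* (chr10:86300372-86349506, plus strand). It was the next gene by fold in the adult, at 79.0 CPM in the rich cells and 9.36 CPM in the other adult *Pdgfra*+ cells. At puberty it was at 51.0 and 10.3 CPM. The strand used in counting is not given in the sources used here, and whether *Timp3* reads entered the *Syn3* counts was not tested. Only 5 genes besides *Timp3* were at least 2-fold higher in the adult *Timp3*-rich cells with 10 CPM added, namely *Syn3*, *Fabp4*, *Cxcl9*, *Adamts16* and *Lamc3*, named after their values were seen, against 82 in the pubertal ones, led there by *Ccn2*, a matricellular gene, at 321 and 35.1 CPM. Mural markers summed to 42.1 CPM in the adult *Timp3*-rich cells and 43.5 CPM in the others, and predicted doublets made up 5.96% and 9.90%. At puberty the mural sum was 134 against 69.2 CPM, and its part in the 69 pubertal cells was not tested.

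*Mmp3* was spread unevenly over cells. Of thinned *Pdgfra*+ cells, 28.1% of the pubertal (27.4 to 28.7) and 45.5% of the adult ones (44.8 to 46.2) held an *Mmp3* UMI, against 3.16% and 1.60% of *Myh11* or *Rgs5* cells, which had medians of 6334 and 6126 UMIs before thinning. The tenth of *Pdgfra*+ cells with the most *Mmp3* held 71.5% of its UMIs at puberty and 58.2% in the adult. Higher shares were found at puberty for *Mmp27* (88.9%) and in the adult for *Mmp19* (58.6%) and *Mmp23* (61.4%), all less abundant. The share is bound to be 100% for a gene found in under 10% of cells. This was so for *Mmp11* and *Timp1* at both stages and for *Mmp27* in the adult, so it says nothing of their spread. The variance of *Mmp3* UMIs per cell was 6.23 times the mean at puberty and 7.75 times in the adult, the highest of the 10 members. More adult cells thus carried the transcript, and more carried much of it. At least 10 UMIs were found in 241 pubertal (1.30%) and 965 adult cells (4.69%). Of these, 215 pubertal and 629 adult cells were in the *Gdf10* or *Fmo2* subset. Among the pubertal cells rich in *Mmp3*, 165 other genes were at least 2-fold higher than in the remaining *Pdgfra*+ cells, with *Gria4*, *Fmo2* and *F3* next by fold. Among the adult ones there were 8, led by *Igfbp2*. These counts also took in only genes past a minimum CPM in the rich cells, and genes lower there were not counted. The part of the *Gdf10* or *Fmo2* subset in these gene counts was not tested. *Fmo2*, a monooxygenase gene and one of the markers that drew the subsets, was at 751 against 117 CPM at puberty and at 239 against 116 CPM in the adult.

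**Figure D3:**
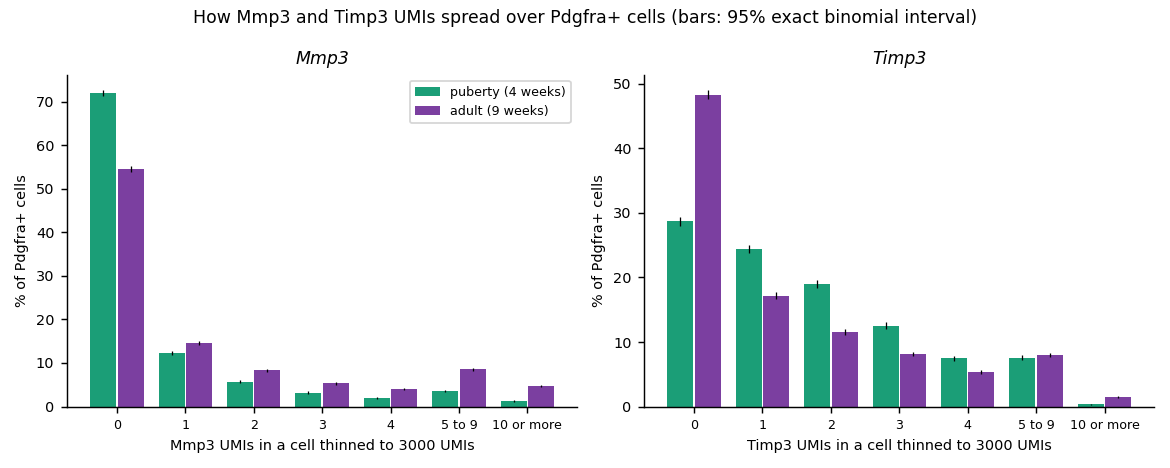
Bars give the percentage of *Pdgfra*+ cells (y axis) with 0, 1, 2, 3, 4, 5 to 9, or 10 or more UMIs of *Mmp3* (left) and *Timp3* (right) after each cell was thinned to 3000 UMIs, at puberty (green, 18542 cells) and in the adult (purple, 20573 cells), with exact 95% binomial intervals. Cells with 0 *Mmp3* UMIs make up 71.9% and 54.5%, and cells with 0 *Timp3* UMIs 28.7% and 48.3%.

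The genes that respond to tissue dissociation also differed between the libraries. Of 12 such genes, 4 were at least 1.5-fold higher in adult *Pdgfra*+ cells and 0 lower, beside 12.0% and 5.09% of all genes. The sum of the 12 was 20518 CPM at puberty and 25814 CPM in the adult. The 4 were the heat-shock genes *Hspa1a* (46.9 and 248 CPM, a ratio of 5.29) and *Hspa1b* (36.8 and 295 CPM, 8.03) and the immediate-early genes *Ier2* (410 and 836 CPM, 2.04) and *Jun* (3183 and 5299 CPM, 1.66). The other 8 had ratios of 1.24 (*Fos*), 1.26 (*Junb*), 1.30 (*Egr1*), 1.29 (*Ier3*), 1.23 (*Dnajb1*), 0.932 (*Fosb*), 0.735 (*Atf3*) and 0.771 (*Nr4a1*). In 3 bins of cells with rising shares of these genes, the adult over puberty ratio of *Mmp3* was 2.56, 2.05 and 1.77, and in 3 bins of rising UMIs per cell it was 2.29, 2.38 and 2.23. *Mmp3* was thus higher in the adult in all 6 bins. Its level also rose with the dissociation share, at 176, 295 and 442 CPM at puberty and 450, 606 and 782 CPM in the adult. The bin with the highest share held 4261 pubertal and 9032 adult cells. *Timp1* had ratios of 1.51, 1.09 and 0.890 over the bins of dissociation share, so its direction differed between them, and *Timp3* had 1.02, 1.02 and 0.799. *Timp3* also had 0.709, 0.936 and 0.969 over the bins of UMIs per cell. The part of the dissociation genes in these differences was not tested.

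Summed over members, the 7 metalloproteinase genes were at 1806 CPM at puberty and 2179 CPM in the adult in *Pdgfra*+ cells, and the 3 inhibitor genes at 2513 and 2177 CPM. There were 0.718 metalloproteinase UMIs per inhibitor UMI at puberty, with an interval from 0.716 to 0.721, and 1.0 in the adult. *Mmp3* made up 15.3% of the metalloproteinase UMIs at puberty and 29.2% in the adult, while *Mmp2* went from 44.2% to 34.7%. *Timp2* made up 75.1% and 73.9% of the inhibitor UMIs. Within Pi16+Dpp4+ cells, the subset with the lowest values, the transcript ratio was 0.592 and 0.618. It was 0.922 and 1.31 in *Gdf10* or *Fmo2* cells, 0.843 and 0.981 in *Thbs4* or *Bmp5* cells, 1.40 and 1.66 in *Fabp4* cells and 1.68 and 2.10 in *Crabp1* cells. The adult value was the higher one in each of these overlapping subsets, which differed more from each other than the stages did. In cells of the Pi16+Dpp4+ subset alone it was the lower one, with *Timp2* at 2251 and 2808 CPM and *Timp3* at 703 and 905 CPM. It was also the lower one in cells of the *Thbs4* or *Bmp5* subset alone, and the higher one in the other subsets taken alone. These are ratios of transcripts, which say nothing of proenzyme, activity or secreted protein.

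**Figure D4:**
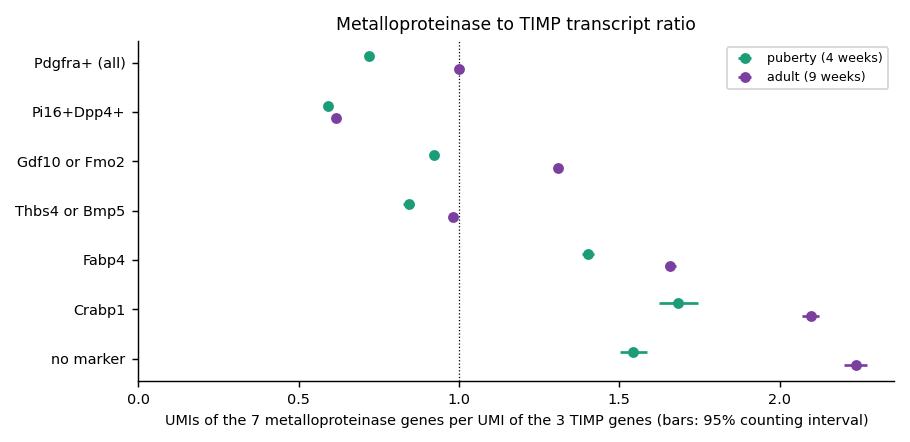
UMIs of the 7 metalloproteinase genes per UMI of the 3 TIMP genes (x axis, starting at 0) are plotted for all *Pdgfra*+ cells, the 5 subsets and *Pdgfra*+ cells with no marker, at puberty (green) and in the adult (purple), with 95% counting intervals. The values run from 0.592 in pubertal Pi16+Dpp4+ cells to 2.24 in adult cells with no marker, and the dotted line marks 1.

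*Myh11* or *Rgs5* cells had another make-up, in which *Timp3* was the leading member. *Timp3* was at 853 CPM at puberty and 1274 CPM in the adult, a ratio of 1.49 (1.43 to 1.56) that is just under the 1.5-fold rule, and 81.8% and 84.5% of thinned cells held it. *Timp4*, the fourth inhibitor and no member here, was at 49.2 and 67.5 CPM, against 0.232 and 0.275 CPM in *Pdgfra*+ cells. In these cells 5 of the 7 members with 10 CPM were called lower in the adult, namely *Mmp2*, *Mmp3*, *Mmp19*, *Mmp23* and *Timp2*, beside 6.17% of all genes, and 0 were called higher, beside 17.0%. *Mmp2* was at 82.6 and 46.3 CPM, and *Timp2* at 350 and 229 CPM.

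Fibroblast markers moved with those 5 calls. Their sum in *Myh11* or *Rgs5* cells was 3759 CPM at puberty and 2316 CPM in the adult, and 3 of the 5 (*Dcn*, *Lum* and *Col1a2*) were at least 1.5-fold lower, with *Pdgfra* at 0 by the rule. Epithelial markers summed to 29.6 and 577 CPM, all 4 of them higher in the adult. When only cells with at most 1 UMI of *Lum* and *Col1a2* and none of *Epcam*, *Krt8*, *Krt14* or *Krt18* were used (510 and 305 cells), none of the 5 was called lower, and *Mmp2* and *Timp3* met the rule for higher. *Mmp3*, *Mmp19* and *Mmp23* were then under 10 CPM. *Mmp2* was at 8.52 and 13.2 CPM with an interval of the ratio from 0.856 to 2.79, *Mmp3* at 2.52 and 4.40 CPM, and *Timp2* at 173 and 155 CPM. *Timp3* kept its direction in these cells, at 859 CPM at puberty and 1389 CPM in the adult, a ratio of 1.62 (1.53 to 1.71), and *Timp4* was at 50.5 and 81.4 CPM. *Rgs5*, a pericyte marker, was itself at 396 and 1425 CPM in the unselected cells. *Timp3* was higher in the adult in cells with *Myh11* alone (770 and 907 CPM), with *Rgs5* alone (1288 and 2128 CPM, 27 and 65 cells) and with both (966 and 1575 CPM).

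**Figure D5:**
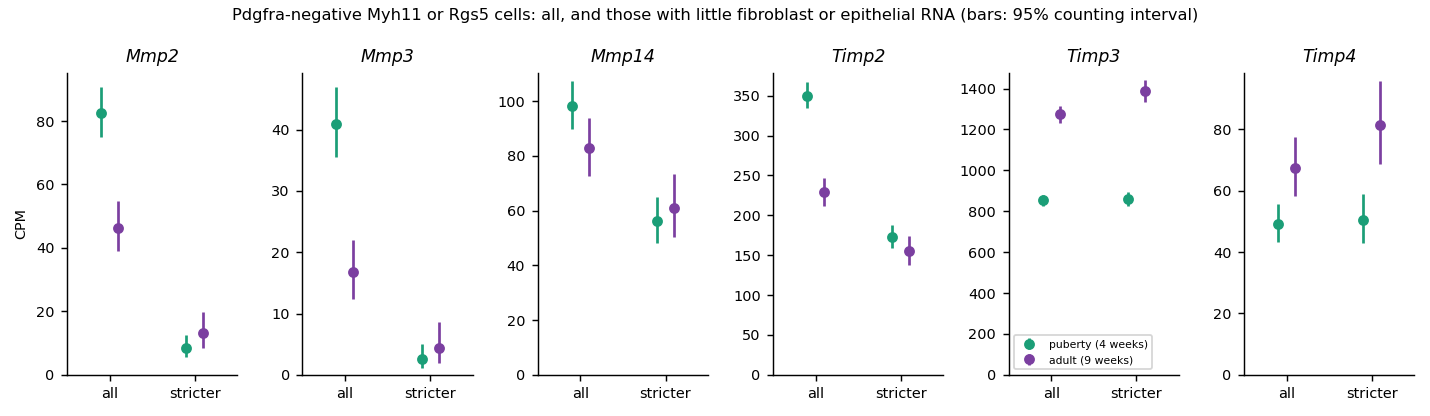
CPM (y axes, starting at 0) of 6 genes in *Pdgfra*-negative *Myh11* or *Rgs5* cells is plotted for all such cells (783 pubertal, 457 adult) and for the stricter cells with little fibroblast or epithelial RNA (510 and 305), with 95% counting intervals. *Mmp2* goes from 82.6 and 46.3 CPM in all cells to 8.52 and 13.2 CPM in the stricter ones, while *Timp3* goes from 853 and 1274 CPM to 859 and 1389 CPM.

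Of 17 other genes of the family, 16 stayed below 5 CPM in *Pdgfra*+ cells of both libraries. The exception was *Mmp16*, a membrane-anchored relative of *Mmp14*, at 20.9 and 51.4 CPM, a ratio of 2.45. It was highest in *Crabp1* cells, at 238 CPM at puberty and 146 CPM in the adult, where it was called lower. The sum over *Pdgfra*+ cells and the subset in which *Mmp16* was highest thus differed in direction.

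Among inhibitors and clearance receptors outside the family, *Reck*, a membrane inhibitor of MMPs, was at 105 and 159 CPM and met the 1.5-fold rule, and *Tfpi2*, a secreted inhibitor of serine proteases, was lower, at 77.1 and 41.6 CPM. The scavenger receptor gene *Lrp1* was at 433 and 534 CPM, and the remaining gene of the list was under 5 CPM. Of 10 genes of the activation list, 9 reached 5 CPM, and 2 of these were called lower, beside 5.09% of all genes. *Plaur*, the urokinase receptor gene, was at 29.4 and 15.2 CPM, and *Pcsk5*, a proprotein convertase gene, at 606 and 396 CPM. Within 1.5-fold were the convertase genes *Furin* (23.1 and 22.8 CPM) and *Pcsk6* (171 and 185 CPM), the plasminogen activator genes *Plau* (128 and 129 CPM) and *Plat* (434 and 523 CPM), the inhibitor gene *Serpine2* (38.4 and 45.6 CPM), and *Bsg* (228 and 224 CPM), which encodes an inducer of MMP expression.

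Genes whose levels followed those of a member over the 6 fibroblast groups of both libraries were named by Pearson's r of log2(CPM + 10) over 12 points, which share cells and libraries. *Timp2* was most like *Plpp3* (r = 0.990) and *Plce1* (0.988), *Mmp27* most like *Gm50288* (0.980) and *Abi1* (0.955), and *Mmp19* most like *Stk40* (0.976) and *Gsto1* (0.962). *Mmp3* was most like *Serpinb8* (0.937) and *Slc36a2* (0.933), *Mmp11* most like *Asxl1* (0.976) and *Hc* (0.971), and *Mmp23* most like *Erlin2* (0.963) and *Hsd17b7* (0.959). The likeness was lowest for *Mmp14*, with *Actr3* and *Mta2* at 0.895. For *Mmp2* the nearest genes were *Snap29* (0.936) and *Nexmif* (0.935), for *Timp1* *Adgrl1* (0.951) and *Spcs1* (0.943), and for *Timp3* *Sdhaf4* (0.961) and *Sec14l1* (0.926). These are the highest of 7409 genes in each case and describe the points only.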

How the data were processed

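Stromal cells of 2 stages were profiled by droplet scRNA-seq. Per the labels, a 10x Genomics GEM-X 3′ v4 kit was used, and the authors deposited filtered matrices of raw UMI counts made with Cell Ranger 8.0.1 on mm10, not normalized. Kit, software version and pubertal age are given differently in the study's methods, and the labels were followed. Of the 33696 gene identifiers in the deposited lists, 31961 were in GENCODE M21. The members and gene lists were chosen with earlier results of these data known. Cells were kept with at least 500 genes and at most 10% mitochondrial UMIs, and groups were set by the markers named above. Raw counts were summed per group and divided to CPM with exact Poisson intervals. Ratios have conditional binomial and shares exact Clopper-Pearson 95% intervals, in Python 3.11.15 with scipy 1.17.1. Cells were thinned to 3000 UMIs without replacement for shares of cells. Doublets were left in for the main values and predicted with Scrublet in scanpy 1.11.5 for an alternative, and edgeR 4.0.16 gave trimmed-mean (TMM) factors for another. The call rule was run on simulated counts with Poisson error only, which says nothing of the spread between mice or libraries. All members are named, with genes of the wider lists from 5 CPM in *Pdgfra*+ cells and the 2 genes most like each member. A result for 1 gene of the activation list is not reported here. Rich cells, stricter mural cells, bins and the fixed subset mix were chosen after values were seen.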

Additional observations from a re-analysis of the deposited data

Results flagged for a closer look

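Several members differed in direction between a fibroblast subset and *Myh11* or *Rgs5* cells, and none of these differences was tested, with 1 library per stage. The ratio of the adult over puberty ratios was 6.53 for *Mmp3* (2.66 in *Crabp1* cells and 0.407 in *Myh11* or *Rgs5* cells). It was 3.32 for *Mmp19* (1.26 in *Gdf10* or *Fmo2* cells and 0.380), 1.84 for *Mmp2* (1.03 in *Fabp4* cells and 0.561), 1.70 for *Timp2* (1.11 in Pi16+Dpp4+ cells and 0.654) and 1.51 for *Mmp14* (1.27 in *Crabp1* cells and 0.843). *Timp3* went the other way, with 1.71 (1.49 in *Myh11* or *Rgs5* cells and 0.873 in *Gdf10* or *Fmo2* cells). Fibroblast markers were also lower in the adult *Myh11* or *Rgs5* cells (2316 against 3759 CPM). In the stricter cells with little fibroblast or epithelial RNA, the ratios of *Mmp3* (1.74), *Mmp2* (1.55), *Mmp19* (1.40) and *Mmp14* (1.09) were above 1. *Timp2* was at 0.899 there, and the intervals of all these ratios include 1. *Timp3* kept its direction, at 1.62 (1.53 to 1.71).

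Cells with no UMI of *Pdgfra*, *Myh11* or *Rgs5*, which entered no comparison, also held members. *Timp2* was at 2021 CPM in 1873 such pubertal cells, and *Mmp27* at 35.7 CPM in 1516 such adult cells.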

How the results depend on the processing

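No paired analysis was possible because each stage had 1 library and the stages share only 1 replicate number, and for the same reason no library could be left out. In *Pdgfra*+ cells, 2 members were higher and 2 lower. With equal weight for each subset 1 was higher and 0 lower, and with the pubertal subset mix in both libraries 0 were lower. Over the subsets, 8 pairs of member and subset were higher and 6 lower, and 3 were lower with subsets drawn on thinned cells. In *Myh11* or *Rgs5* cells 0 members were higher and 5 lower. There 1 was higher with at most 5% mitochondrial UMIs, with predicted doublets removed, with an upper limit on genes, with mean CPM per cell and with thinned sums, and 2 in the stricter cells. There 3 were lower with doublets removed and with thinned sums, and 0 in the stricter cells, where *Mmp2* (1.55), *Mmp3* (1.74) and *Mmp19* (1.40) turned direction on few UMIs. The adult over puberty ratio of the share of *Pdgfra*+ cells with *Timp1* was 0.971 unthinned and 1.09 thinned. *Mmp3* kept its direction in *Pdgfra*+ cells under all 12 settings (1.84 to 2.31), as did *Mmp11* (1.36 to 3.27), *Mmp14* (1.06 to 1.17), *Mmp23* (0.515 to 0.709) and *Mmp27* (0.530 to 0.800), while *Mmp2*, *Mmp19*, *Timp1*, *Timp2* and *Timp3* had settings on both sides of 1. The causes were not tested. Depth limits *Mmp11* and *Mmp27* in small groups.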
